A study of Mus musculus with 5 samples.

Results

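RING1B peaks of control mouse embryonic fibroblasts (MEFs) that were at least 2000 bases wide and had no base in common with any RING1B peak of cells expressing EZHIP or of cells expressing H3.3 K27M formed the set described here, and these peaks are called lost. The set held 303 of the 821 control peaks, and 303 of the 583 control peaks of at least 2000 bases (52.0%, 95% Wilson interval 47.9 to 56). Over control peaks of any width, 63.8% were lost. The other 280 control peaks of at least 2000 bases shared bases with a peak of the EZHIP or H3.3 K27M list and are called kept. Of these, 152 had a peak in both lists, 54 in the EZHIP list only and 74 in the H3.3 K27M list only. The control list held 821 peaks over 5.50 Mb, the EZHIP list 311 over 1.81 Mb and the H3.3 K27M list 286 over 2.30 Mb, 1418 in all. The narrowest control peak had 1199 bases and the narrowest EZHIP and H3.3 K27M peaks 399. Whether the lists were called with the same settings was not tested, and a difference in calling cannot be told apart from a difference in RING1B. The members were chosen by the width of the control peaks and by their overlap with the other lists, so both are given as description.

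The control cells were parental MEFs, derived from a mouse embryo in which loxP sites flank exons of EED, a core subunit of the Polycomb Repressive Complex 2 (PRC2). The EZHIP and H3.3 K27M cells were made from the same floxed MEFs with lentiviruses that carried human EZHIP or the H3.3 K27M mutant histone, and were selected with puromycin. RING1B was profiled by chromatin immunoprecipitation and sequencing (ChIP-Seq) after crosslinking and digestion with micrococcal nuclease. There was 1 library per group, the lists gave positions only, and the depth of the libraries is unknown. No spread between replicate libraries could be measured, and no p-value is given. Lost therefore means that no peak was called, not that RING1B was absent, and a lower depth in a library cannot be told apart from less RING1B. Libraries of cells with H3.3 K27R and of the EED deletion line were not analysed here.

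RING1B is the ubiquitin ligase of Polycomb Repressive Complex 1 (PRC1), which monoubiquitinates histone H2A and compacts chromatin at silenced developmental genes. PRC2 trimethylates histone H3 at lysine 27, a mark that the CBX subunits of canonical PRC1 bind, and both complexes gather at CpG islands, stretches of unmethylated DNA rich in the dinucleotide CpG. EZHIP and the K27M histone both inhibit EZH2, the methyltransferase of PRC2. The question set to the peak lists was which genes and sequences lie under the control RING1B peaks that had no counterpart with either inhibitor.

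The sequences below show the CpG content under several of these peaks. They are 200-base windows of the NCBIM37 (mm9) plus strand, each chosen for its CpG count outside annotated exons, with CpG in capitals. The Hoxb3 window lies in an intron of Hoxb3 at chr11:96194056-96194255, in the widest lost peak, and the Hoxb9 window lies in an intron of Hoxb9 at chr11:96133701-96133900, in the neighbouring kept peak. Each of these holds 24 CpG. The Dlx2 window, intergenic at chr2:71381141-71381340, holds 26, and the Ptch1 window, intronic at chr13:63667034-63667233, holds 37. The Ihh window begins 17 bases upstream of the Ihh start at chr1:74998263-74998462 and holds 23. The Zswim6 window, intronic at chr13:108678795-108678994, comes from a peak with one of the highest CpG ratios and holds 35.
Hoxb3 (lost): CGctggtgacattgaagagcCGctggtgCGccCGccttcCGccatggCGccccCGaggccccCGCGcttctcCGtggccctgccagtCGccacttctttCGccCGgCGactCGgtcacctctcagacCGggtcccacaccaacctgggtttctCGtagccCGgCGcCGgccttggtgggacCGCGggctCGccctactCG
Hoxb9 (kept): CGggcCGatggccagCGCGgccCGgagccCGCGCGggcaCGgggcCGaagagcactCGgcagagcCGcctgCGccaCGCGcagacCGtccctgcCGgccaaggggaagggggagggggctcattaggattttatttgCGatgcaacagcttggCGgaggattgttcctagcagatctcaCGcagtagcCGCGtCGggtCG
Dlx2 (lost): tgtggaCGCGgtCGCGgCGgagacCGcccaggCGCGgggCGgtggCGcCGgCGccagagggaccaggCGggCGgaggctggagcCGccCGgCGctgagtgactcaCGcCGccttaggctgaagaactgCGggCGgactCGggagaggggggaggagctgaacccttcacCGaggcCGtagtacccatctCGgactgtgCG
Ptch1 (lost): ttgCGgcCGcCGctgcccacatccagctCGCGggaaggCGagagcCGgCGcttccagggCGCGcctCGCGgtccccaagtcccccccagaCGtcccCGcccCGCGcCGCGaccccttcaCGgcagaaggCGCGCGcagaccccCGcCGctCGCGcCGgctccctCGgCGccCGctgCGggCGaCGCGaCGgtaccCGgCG
Ihh (lost): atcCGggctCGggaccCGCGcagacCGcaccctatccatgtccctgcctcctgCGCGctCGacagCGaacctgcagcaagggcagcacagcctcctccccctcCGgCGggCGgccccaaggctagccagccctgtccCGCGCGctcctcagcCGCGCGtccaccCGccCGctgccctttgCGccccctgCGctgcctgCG
Zswim6 (lost): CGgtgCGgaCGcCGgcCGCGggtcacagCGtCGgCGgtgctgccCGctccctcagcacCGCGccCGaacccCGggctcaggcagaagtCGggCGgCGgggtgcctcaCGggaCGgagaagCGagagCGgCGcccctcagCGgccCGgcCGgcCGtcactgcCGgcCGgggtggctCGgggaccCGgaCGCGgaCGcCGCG
GC content was 71.5% in the Hoxb3 window and 69.0% in the Hoxb9 window, and the ratio of observed to expected CpG was 0.969 and 1.02. Both windows were picked for their CpG count, so the likeness is no finding.

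The lost peaks covered 1.42 Mb. Their median width was 3599 bases (quartiles 2599 and 5199), against 10299 bases (5349 and 17999) for kept peaks. The widest was 37599 bases and the narrowest 2199 bases. Lost peaks made up 126 of 148 peaks of 2 to under 3 kb (85.1%), 99 of 143 of 3 to under 5 kb (69.2%), 60 of 133 of 5 to under 10 kb (45.1%) and 18 of 159 of 10 kb or more (11.3%). Peak boundaries moved in steps of 200 bases, so 25 members lay at 2199 bases, just inside the limit, and 41 lost peaks at 1999 bases lay just outside it. With peak ends taken as inclusive, those 41 reached the limit, and 344 of 628 control peaks were lost (54.8%). On the side of overlap, the kept peaks with the fewest shared bases had 399, among them those at Sobp, Socs2 and Nptx1, and 19 of 280 kept peaks shared under 10% of their bases. The lost peak over Dgcr14, 3799 bases wide, lay 1 base from an H3.3 K27M peak. The next nearest, at Fcgr3, lay 3201 bases from one.

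**Figure D1:**
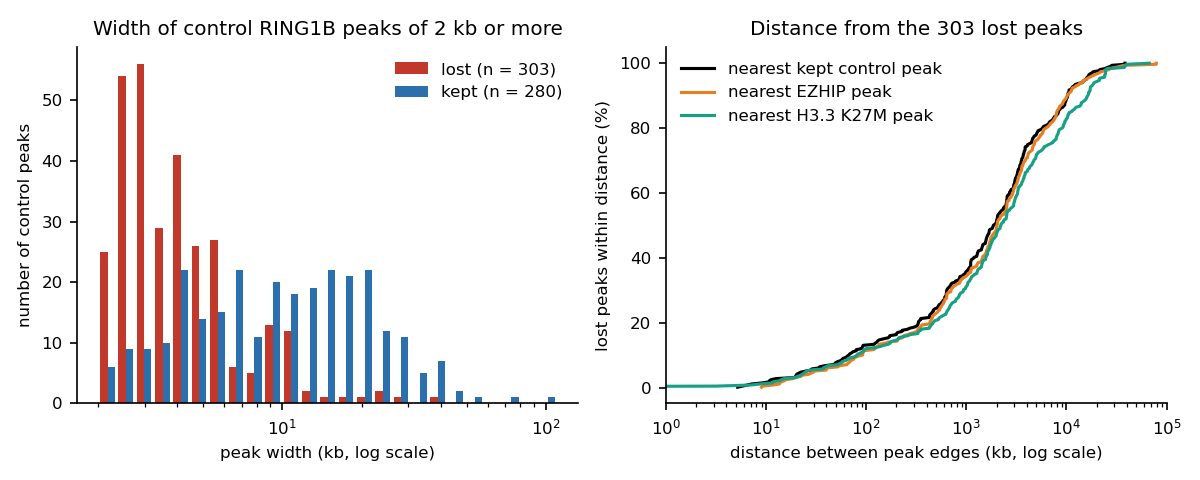
Left, the number of lost (red) and kept (blue) control peaks by width in kb on a log scale. Right, the share of the 303 lost peaks (percent) within a given distance in kb, on a log scale, of the nearest kept control peak, EZHIP peak or H3.3 K27M peak; the peak over Dgcr14, 1 base from an H3.3 K27M peak, lies left of the axis. Lost peaks crowd below 5 kb, and the 3 distance curves have medians between 1.86 and 2.22 Mb.

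The share of lost peaks differed between chromosomes, from 9 of 25 on chromosome 6 (36.0%, 20.2 to 55.5) and 8 of 22 on chromosome 1 (36.4%) to 25 of 34 on chromosome 17 (73.5%, 56.9 to 85.4) and 7 of 9 on chromosome 16 (77.8%, 45.3 to 93.7). Chromosome 11 held 39 lost peaks, more than any other, of 59 control peaks (66.1%, 53.4 to 76.9). On the X chromosome 7 of 14 were lost.

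The 10 widest lost peaks held developmental regulators beside genes of other kinds. The peak of 37599 bases at chr11:96158601-96196199 contained Hoxb3, Hoxb4 and Hoxb5, homeobox genes of the anterior and central HoxB cluster, and the microRNA gene Mir10a, with the start of each inside it. A peak of 19599 bases at chr2:71365401-71384999 spanned Dlx1 and Dlx2, paired homeobox genes of forebrain and craniofacial development. A peak of 14399 bases held Tbx1, a T-box gene of pharyngeal development. Outside these families, peaks of 22999, 16599, 12199, 11999 and 11599 bases held Prss16, the pair Ube2z and Atp5g1, Ccno, Shmt2 and Rimklb. The Shmt2 peak also overlapped Nxph4, and 11508 of its bases lay upstream of the start of Shmt2, the mitochondrial serine hydroxymethyltransferase gene, with 490 downstream. Atp5g1 encodes a subunit of the mitochondrial ATP synthase. A peak of 25199 bases 20.6 kb from Calcoco1 held no annotated gene. The peak of 29399 bases over BC107364 and U1 small nuclear RNA genes was the one of the 10 dominated by repeated sequence, with 56% of its sampled 32-base words found elsewhere in the genome.

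Such repeated words made up over 50% of 10 lost peaks and of 11 kept peaks, and positions there are uncertain because reads could be placed at any copy. The U1 cluster on chromosome 12 (97.5%) and Fcgr3, an Fc receptor gene (94.6%), were among these members. The median lost peak had 1.09% of its words repeated.

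CpG content was high in the lost peaks. Their median GC content was 54.95% (quartiles 50.6 and 58.9), against 49.92% in kept peaks and 41.8% over the genome. The observed to expected CpG ratio had a median of 0.597 (95% order-statistic interval 0.556 to 0.625) in lost and of 0.509 (0.493 to 0.527) in kept peaks, and was 0.191 over the genome. Per kb, the median lost peak held 44.9 CpG and the median kept peak 31.1. CpG-island-like sequence, defined as windows of 500 bases with at least 55% GC and a ratio of at least 0.65, occurred in 279 of 303 lost peaks (92.1%, 88.5 to 94.6) and in 263 of 280 kept peaks (93.9%, 90.5 to 96.2). Over both, 93.0% of control peaks of this width held such sequence. The lost peaks took up 2.45% of the 18335 island-like sequences of the genome.

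The higher ratio of lost peaks went with their width. Within width classes the order of the CpG ratio turned or the gap shrank, with 0.663 in lost and 0.675 in kept peaks of 2 to under 3 kb, 0.581 and 0.594 at 3 to under 5 kb, 0.509 and 0.557 at 5 to under 10 kb, and 0.466 and 0.460 at 10 kb or more. The median GC content of lost and of kept peaks in these classes was 57.2% and 54.1%, 54.9% and 51.8%, 52.1% and 50.6%, and 51.6% and 49.4%, and its 95% order-statistic intervals overlapped in each class. In the densest 500-base window of each peak the medians were close, with 56 CpG in lost and 58.5 in kept peaks, a GC content of 70.8% and 70.9%, and a ratio of 0.920 and 0.939. These values are set side by side with no test.

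**Figure D2:**
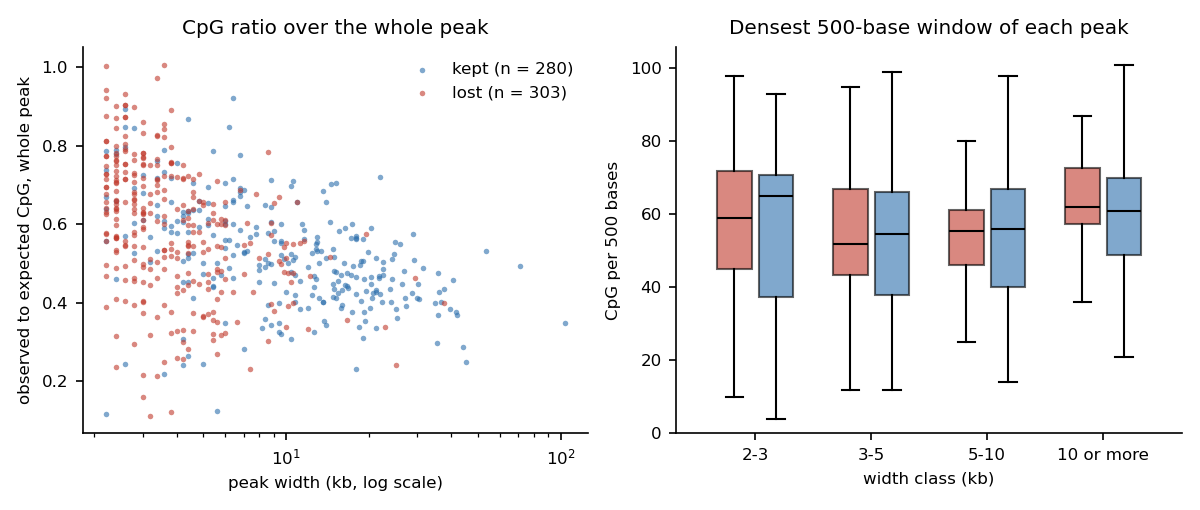
Left, the observed to expected CpG ratio over each whole peak against peak width in kb (log scale), 1 point per control peak, lost in red and kept in blue. Right, CpG per 500 bases in the densest window of each peak by width class in kb, where boxes span the quartiles, the line is the median and whiskers reach the last value within 1.5 times the box length. The ratio falls with width in both sets, while the densest windows overlap, with medians of 56 and 58.5 CpG over all classes.

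Single lost peaks reached both ends of the CpG range. The highest ratios were 1.01 in a peak near Gpc5, 1.00 in a peak within Grb10, which encodes an adaptor of insulin receptor signalling, and 0.972 at Zswim6. The Zswim6 peak was 3399 bases wide, held 407 CpG and was island-like over its whole length. The lowest were 0.111 in a peak 0.951 kb from H2-Q2, a class I histocompatibility gene, 0.121 in a peak near Gm15319 with 89.5% repeated words, and 0.159 in a peak within Ttll6. None of these 3 peaks held island-like sequence.

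A gene start lay in 212 lost peaks (70.0%, 64.6 to 74.9), against 228 kept peaks (81.4%, 76.5 to 85.5) and 75.5% of all control peaks of this width. Of the other lost peaks, 62 lay inside a gene and 29 touched none. A single start was found in 154 peaks and more than 1 in 58. The 287 genes with a start in a lost peak were 219 protein-coding genes, 24 lincRNAs, 20 processed transcripts, 9 pseudogenes, 8 small nuclear RNAs, 6 microRNAs and 1 small nucleolar RNA. By symbol, 279 of 33867 annotated genes had a start in a lost peak (0.824%) and 397 in a kept peak (1.17%). Peaks extended to both sides of the start. In lost peaks with 1 protein-coding start, whatever other starts they held, a median of 40.1% of the peak lay upstream of it (n = 167). In such kept peaks the median was 36.2% (n = 179).

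The start of a listed transcription factor gene lay in 38 of 303 lost peaks (12.5%, 9.28 to 16.7) and in 148 of 280 kept peaks (52.9%, 47.0 to 58.6), and in 31.9% of both together. The gap was widest among broad peaks. At 10 kb or more the shares were 5 of 18 lost peaks (27.8%, 12.5 to 50.9) and 108 of 141 kept peaks (76.6%, 69.0 to 82.8), and at 5 to under 10 kb they were 11 of 60 (18.3%) and 30 of 73 (41.1%). At 3 to under 5 kb they were 14 of 99 (14.1%) and 9 of 44 (20.5%), and at 2 to under 3 kb 8 of 126 (6.35%) and 1 of 22 (4.55%), where the intervals overlapped.

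**Figure D3:**
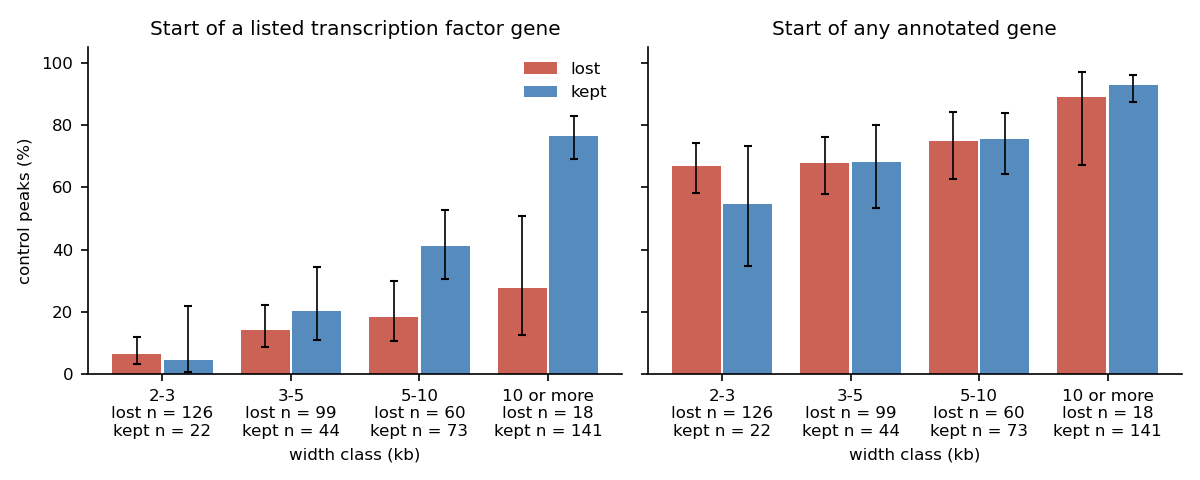
Share of lost (red) and kept (blue) control peaks (percent) that hold the start of a listed transcription factor gene (left) or of any annotated gene (right), by width class in kb; bars are shares and error bars are 95% Wilson intervals, which cover counting error only. At 10 kb or more the transcription factor share is 27.8% in lost and 76.6% in kept peaks, while the intervals for any gene start overlap in every class.

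Counted by gene, 41 of 611 listed transcription factor genes had a start in a lost peak and 172 in a kept peak of any width. The 41 made up 19.1% (14.4 to 24.8) of the 215 with a start in any control peak, against 34.1% over all 818 symbols with one. Of the 818, 144 had a start in a lost peak under 2000 bases, against 2 of the 215. Such genes count only in the denominator of these shares. Of the Hox genes, which pattern the body axis, 3 lay in lost peaks, 25 in kept peaks and 2 in lost peaks under 2000 bases, a lost share of 10.0% (3.46 to 25.6) of the 30 with a control peak. All 3 lost ones, Hoxb3, Hoxb4 and Hoxb5, shared 1 peak. Of the other ANTP-class homeobox genes, 5 were lost and 38 kept (11.6% lost, 5.07 to 24.5). The lost ones were Dlx1 and Dlx2, Dbx1, a spinal cord progenitor factor (5399 bases), Msx2 (3599 bases) and Dlx3 (2399 bases). Of the remaining homeobox classes, 7 were lost and 35 kept (16.7% lost, 8.32 to 30.6). Irx1, an Iroquois gene, had the widest of these peaks with 10599 bases. Satb1, a chromatin organiser of T cells, had 5399 bases, Prox1, a lymphatic endothelial factor, 5999, Alx4 5799 and Six2, a kidney progenitor factor, 4199. Of PAX genes, 5 were kept and 0 lost (0% lost, 0 to 43.4), and of GATA genes 3 and 0 (0% lost, 0 to 56.1). Both of these intervals held 34.1%.

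For forkhead, basic helix-loop-helix and zinc-finger genes the intervals of the lost share held the 34.1% of all symbols. These lists had 0 genes in lost peaks under 2000 bases, so the 34.1% is not a like reference. Whether these lists stand apart was not tested. Of FOX genes, 2 were lost, Foxo6 (5199 bases) and Foxq1 (2599 bases), and 13 kept (13.3% lost, 3.74 to 37.9). Of bHLH genes, 5 were lost and 15 kept (25% lost, 11.2 to 46.9). The lost ones were Ptf1a, a pancreas and cerebellum factor whose peak spanned 10599 bases, Npas3 (4999 bases), Olig1 of the oligodendrocyte lineage (4599 bases), Neurod1 of endocrine and neuronal differentiation (4399 bases) and Ebf1 of B cells (2799 bases). Among developmental zinc-finger genes, 6 were lost and 24 kept (20% lost, 9.51 to 37.3). Sp5, a WNT target, had 8799 bases, Sall1 4199, the immediate early genes Egr3 and Egr2 3799 and 3599, Sall2 3199 and Prdm1 2399.

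The intervals of the other factor families also held 34.1%. Among SOX and T-box genes, 4 were lost and 5 kept (44.4% lost, 18.9 to 73.3), and the lost ones were Tbx1, Eomes (3799 bases), Sox9 of cartilage (2999 bases) and Sox12 (2599 bases). Among nuclear receptors, Nr2f1 (8999 bases), the mineralocorticoid receptor gene Nr3c2 (5199 bases) and Nr4a3 (3799 bases) were lost and 1 was kept (75% lost, 30.1 to 95.4). Of other transcription factors, 6 were lost and 8 kept (42.9% lost, 21.4 to 67.4). The lost ones were Nfatc1 (9999 bases), Vgll2 (5799 bases), the ETS genes Erg (3799 bases) and Fli1 (2799 bases), and the epithelial genes Grhl3 (3399 bases) and Grhl2 (2599 bases).

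Genes of signalling pathways had small counts. Over the WNT, FGF, BMP, hedgehog, Notch and retinoid lists, a grouping made after the values were seen, 11 of 213 genes were in lost peaks, 4 in kept peaks and 3 in lost peaks under 2000 bases. The 11 made up 61.1% (38.6 to 79.7) of the 18 with a control peak, against the 34.1% over all symbols. Their lost peaks had a median width of 4599 bases, and 69.2% of all control peaks of 3 to under 5 kb were lost. Signalling genes were not compared with others at like width. By list, the lost and kept counts were 3 and 2 for WNT (50% lost, 18.8 to 81.2), 3 and 0 for BMP and TGF-beta (75% lost, 30.1 to 95.4), 2 and 0 for hedgehog, 2 and 1 for Notch (66.7% lost, 20.8 to 93.9), 1 and 1 for retinoid and 0 and 0 for FGF genes, so the WNT, BMP and Notch intervals each held 34.1%. Among ligands, Wnt1 had a lost peak of 4599 bases, Wnt3a of 3199 and its neighbour Wnt9a of 2999. Gdnf, a neurotrophic ligand of the kidney and enteric nervous system, had 3399 bases, Inhbb, an activin subunit, 2399, the Notch ligand Dll4 4599 and Indian hedgehog, Ihh, 2199. Among receptors and antagonists, the hedgehog receptor Ptch1 had the widest of these peaks with 10999 bases, the BMP antagonist Nog 4799, and Nrarp, a Notch target that dampens the pathway, 5599. Cyp26a1, which degrades retinoic acid, had 9799. The 4 kept were Aldh1a2, Dll1, Fzd3 and Wif1.

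Axon guidance and cell adhesion genes had starts in lost peaks and in no kept peak. Over the guidance, adhesion, channel, receptor and synapse lists, also grouped after the values were seen, 20 of 877 genes were in lost peaks. Another 8 were in kept peaks and 6 in lost peaks under 2000 bases. Lost members were 58.8% (42.2 to 73.6) of 34, against 34.1% over all symbols. Their lost peaks had a median width of 3399 bases, and 69.2% of all control peaks of 3 to under 5 kb were lost. Gene lists were not compared at like width. The axon guidance genes Rgmb (5399 bases), Plxnc1 (3999), Ntng2 (3399), Ephb4 (2999) and Sema6a (2199) were lost and 0 were kept (83.3% lost of 6, 43.6 to 97). The protocadherins Pcdh17 (4599 bases), Pcdh10 (4399), Pcdh7 (3399) and Pcdh19 (2399) and the claudin Cldn3 (3199) were lost, again with 0 kept (71.4% lost of 7, 35.9 to 91.8). The adhesion-type receptors Lphn1 (3999 bases), Celsr3 (2999), Lphn3 (2999) and Bai2 (2399) were lost and 2 genes of their list kept (66.7% lost, 30 to 90.3). At the synapse, Dlgap2 (7399 bases), Unc13a (5199), C1ql1 (4399) and Unc13b (2799) were lost and 4 kept (50% lost, 21.5 to 78.5). Kcnh2, a potassium channel gene, had 4399 bases, with Kcnh3 kept, and Vgf, a neuropeptide precursor, 2999, with Npy kept. Of 113 neurotransmitter receptor genes, 0 were lost, 0 kept and 1 lost under 2000 bases, as were 2 further channel genes. The neuronal intermediate filament genes Nefm (2799 bases), Ina (2599), Nefl (2599) and Prph (2199) were lost and no gene of the keratin and filament list was kept (80% lost of 5, 37.6 to 96.4). With 5 to 8 genes a list, these shares rest on few genes.

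**Figure D4:**
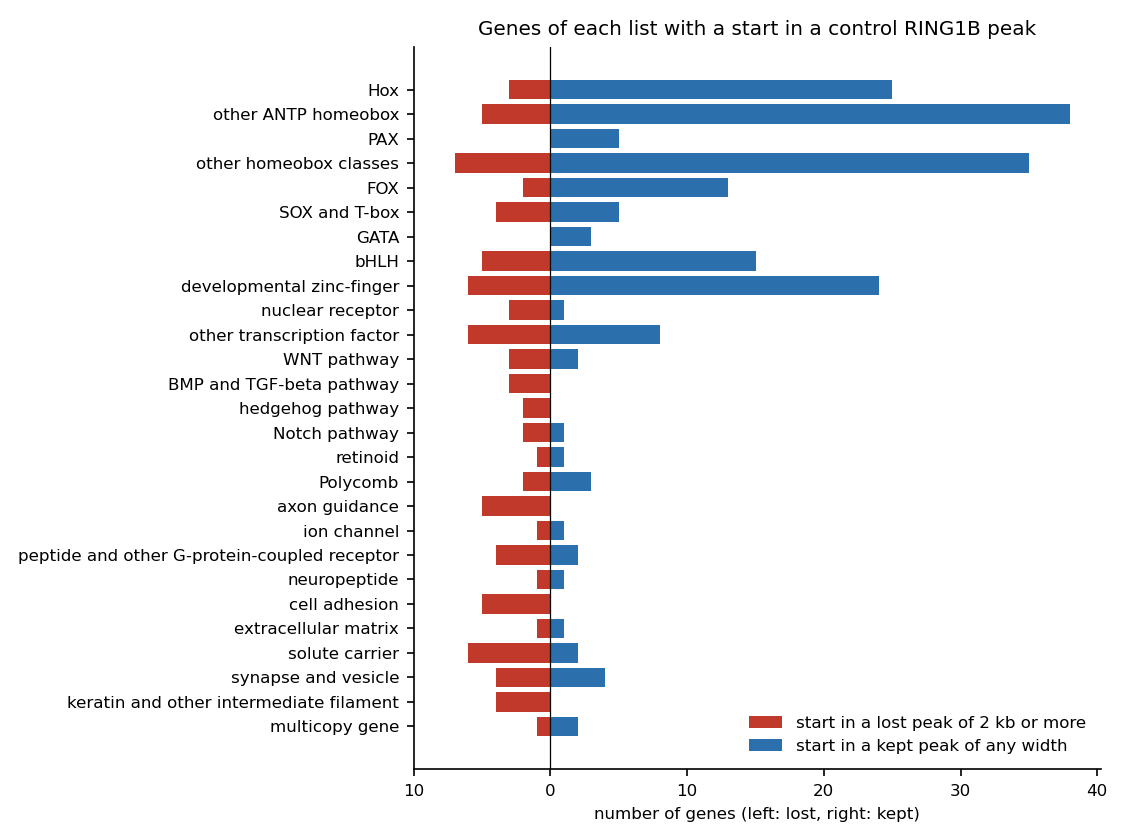
Number of genes of each list with a start in a lost peak of at least 2000 bases (red, to the left) or in a kept peak of any width (blue, to the right). Peak width was not matched between lists. Homeobox, forkhead, bHLH and zinc-finger lists extend to the right, with 25 kept Hox genes against 3 lost; axon guidance, cell adhesion and intermediate filament lists extend to the left only, with 5, 5 and 4 lost genes.

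Other lists held few members. Of 369 solute carrier genes, 6 were lost, 2 kept and 4 lost under 2000 bases (50% lost, 25.4 to 74.6). The lost ones included Slc10a4 (9599 bases), Slc30a3 (4999), a zinc transporter of synaptic vesicles, and Slc6a5 (3999), a glycine transporter. Mmp15, a matrix metalloproteinase gene, had 3999 bases. Among Polycomb genes, 2 were lost, including Bmi1, a PRC1 subunit gene (8599 bases), and 3 were kept (40% lost, 11.8 to 76.9). No start of a cell-cycle inhibitor gene of the list lay in any control peak. Over all family lists, 86 of 3914 genes were in lost peaks, 192 in kept peaks and 18 in lost peaks under 2000 bases. The lost share was 29.1% (24.2 to 34.5) of 296, beside the 34.1% of all symbols. Lost peaks under 2000 bases held 18 of the 296 but 144 of the 818 symbols, so these shares are not on like terms. The 29.1% also pools transcription factors (19.1%) with the signalling lists (61.1%) and the guidance to synapse lists (58.8%).

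The labelled cell type was compared with where marker genes lay. Over all symbols, 0.824% had a start in a lost peak and 1.17% in a kept peak, and each marker list held 0 to 2 of either, too few to read against these shares. Of 16 fibroblast marker genes, 0 had a start in a lost peak and 1, Pdgfra, in a kept peak. Neuron markers had 2 of 17 in lost peaks, Nefl and Nefm, and 2 in kept peaks. Endothelial markers had 1 of 12 in lost peaks, Erg, and 0 in kept peaks, and epithelial markers 1 of 12, Grhl2, and 1, Esrp1. Blood markers had 0 of 15 in lost peaks and 1, Tal1, in a kept peak, and skeletal muscle markers had 0 of 13 in either. These are positions of RING1B peaks and not levels of expression, which were not measured in these files.

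The 6 microRNA genes under lost peaks included Mir10a, Mir137 and Mir124a-3, named here after their values were seen. Mir10a starts at position 96178479 on chromosome 11 in the Hoxb3 to Hoxb5 peak, Mir137 at position 118136761 on chromosome 3 in a peak of 3999 bases, and Mir124a-3 at position 180628736 on chromosome 2 in a peak of 2999 bases. miR-10a is encoded within the HoxB cluster, and miR-124 and miR-137 are abundant in neurons. RefSeq mature sequences of the 5p arm of Mir10a and the 3p arm of Mir137 are given to identify them, with the seed, bases 2 to 8, in capitals.
miR-10a-5p: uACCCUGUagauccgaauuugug
miR-137-3p: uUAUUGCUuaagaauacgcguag
The seeds differ, so these microRNAs belong to separate seed families.

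Most lost peaks lay far from any kept peak. The median distance to the nearest kept control peak of any width was 1.86 Mb (quartiles 0.525 and 4.17), with a range from 5201 bases to 38.4 Mb. Within 10 kb of one were 5 lost peaks (1.65%), within 50 kb 24 (7.92%, 5.38 to 11.5), within 100 kb 40 (13.2%) and within 1 Mb 109 (36.0%). For kept peaks, the median distance to another kept peak was 1.40 Mb, and 38 of 280 (13.6%, 10.0 to 18.1) lay within 50 kb of one. Lost peaks lay closer to each other, with a median of 0.652 Mb to the nearest lost peak of any width and 54 within 50 kb, and the control list holds more lost than kept peaks. The nearest EZHIP peak was a median of 2.02 Mb and the nearest H3.3 K27M peak 2.22 Mb away.

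The 5 lost peaks nearest to a kept peak were those at Ppp1r1b (5.20 kb), the pseudogene Gm8835 (5.80 kb), near Six3 (6.40 kb), Fcgr3 (7.20 kb) and the U1 cluster of chromosome 12 (9.20 kb). Repeated words made up 94.6% of the Fcgr3 peak, 97.5% of the U1 peak and 26.2% of the Gm8835 peak, so that the positions of these pairs are less certain. The other 19 within 50 kb were of several kinds. Some lay at unrelated genes, such as the Ube2z and Atp5g1 peak 46.0 kb from that of Igf2bp1 and a peak near Agap2 12.6 kb from that of Cdk4 and March9. A few pairs within gene clusters are described next, chosen after their values were seen. In the HoxB cluster, the lost peak over Hoxb3, Hoxb4 and Hoxb5 lay 10.8 kb from a kept peak of 36599 bases over Hoxb7, Hoxb8 and Hoxb9, which shared 29799 bases with EZHIP peaks and 21599 with H3.3 K27M peaks. The start of Hoxb6 lay in the gap between them. At the other end of the cluster, a lost peak within Ttll6 lay 21.2 kb from the kept peak of 43999 bases at Hoxb13. The lost peak of Olig1 lay 34.4 kb from the kept peak of its paralogue Olig2, which was 15199 bases wide and shared 5199 bases with EZHIP and 9799 with H3.3 K27M peaks. The lost peak of Dlx3 lay 20001 bases from the kept peak of Dlx4, which shared 5799 bases with H3.3 K27M peaks and 0 with EZHIP peaks.

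The shortest gap separated the lost peak of 10599 bases at Ppp1r1b, which encodes a dopamine-regulated phosphatase inhibitor of striatal neurons, from the kept peak of Neurod2. That kept peak shared 9599 bases with the H3.3 K27M list but 399 with the EZHIP list. A pair of lost peaks 136.1 and 149.3 kb from Six3, the nearest protein-coding gene, lay 6.40 and 19.6 kb from a kept peak there, and the Nr2f1 peak lay 11.2 kb from a kept peak in its own flank. The peak near Ikzf3 lay 10.8 kb from the kept peak at the Ikzf3 start. Lost peaks also lay 38.4 kb from a kept peak near Dbx1 and 49.6 kb from the kept peaks of Pax2 and of Lbx1. Within single genes, Casz1, Gnas, Ikzf3, Prdm1 and Ttll6 each had both a lost and a kept peak in the gene body. In Prdm1 the lost peak held the start, and in Casz1 and Ikzf3 the kept one did.

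**Figure D5:**
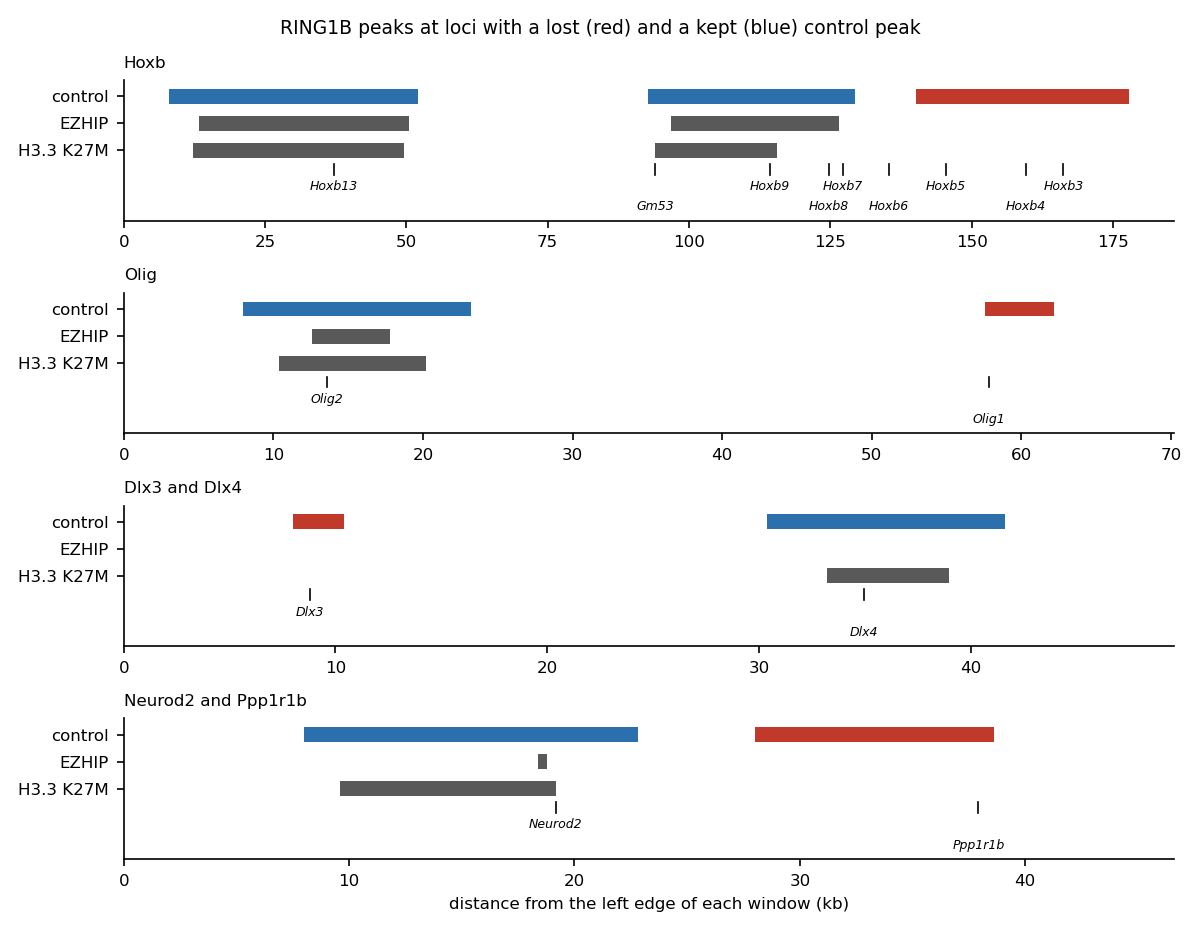
Called RING1B peaks at 4 loci, drawn to scale in kb from the left edge of each window, with control peaks in red (lost) or blue (kept), EZHIP and H3.3 K27M peaks in grey, and ticks at the starts of protein-coding genes. In each window the grey peaks lie under the blue control peak and none under the red one; at Dlx3 and Dlx4 the EZHIP row is empty.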

How the data were processed

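RING1B ChIP-Seq peak lists of 1 control, 1 EZHIP and 1 H3.3 K27M library of MEFs were used. Per the methods, the authors aligned reads to mm9 and to a reference genome for the spiked-in chromatin, using bowtie1 with its defaults (Bowtie 1.0.0 in the submitters' processing notes), which also places reads that match several sites, and called broad peaks with MOSAiCS-HMM. The deposited lists hold positions of peaks in bases and no other measure, such as counts or scores. The stated minimum size was 1000 bases, yet the EZHIP and H3.3 K27M lists reach down to 399 and the control list to 1199, and the stated maximum gap was 10000 bases, above the shortest gap here. Width was end minus start, and printed positions are 1-based. Sequence came from NCBIM37 (mm9) and genes from GENCODE M1, both matching the lists' chromosomes. Mature microRNA sequences came from RefSeq (GRCm38.p6), for 2 of 6 genes. Analysis used Python 3.11.15, numpy 2.4.6, pandas 2.3.3, scipy 1.17.1, numba 0.67.0 and matplotlib 3.10.9, and was tested on simulated sequence. Expected CpG was the product of C and G counts over length. A repeated word was a 32-base word, sampled every 50 bases, found more than once in the genome. Gene lists are families by symbol, and each gene counts in the first list that takes it, while the cell type marker lists overlap these. Members and lists were chosen with earlier results of these data known. Named peaks were the 10 widest, the 5 nearest a kept peak, the 3 highest and 3 lowest in CpG ratio and those at the limits of the rule, and up to 6 genes per list by width of their peak. Neighbour pairs, microRNAs and printed windows were chosen after values were seen, and windows avoid annotated exons although the plan took the densest window. Of 19 alternatives, 1 was added after seeing the data. Some loci are not reported here.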

Additional observations from a re-analysis of the deposited data

How the results depend on the processing

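With 1 library per group and no depth, neither library spread nor depth can be adjusted for, and intervals cover counting error only. No paired analysis was possible because the labels carry no replicate numbers and each group is 1 library, and no library could be left out. Of 129 recomputed values for 12 results, 85 stayed within the interval of the reported value (counts within 1.5 times), 36 moved beyond it and 8 reversed an order of lost and kept peaks whose intervals had not overlapped. In 3 more the order turned where the intervals had overlapped, all for island-like sequence. Each change below follows from the set of peaks or the definition that the alternative uses.

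From 3000 bases on, 177 peaks were lost (40.7%), with a median width of 4599 bases, GC of 53.2%, a CpG ratio of 0.536 and transcription factor starts in 16.9%. From 5000 bases on, 78 were lost (26.7%), with 7299 bases, 0.698 Mb covered, GC of 52.1%, gene starts in 78.2%, 28 listed genes, transcription factor starts in 20.5%, 15.4% within 50 kb of a kept peak, and a CpG ratio of 0.483, now below the 0.486 of kept peaks. With only EZHIP and H3.3 K27M peaks of at least 1000 bases counted, 61.1% were lost at a median of 2.96 Mb from a kept peak. To the nearest EZHIP or H3.3 K27M peak the median was 1.45 Mb. The looser island definition gave 97% in lost and 96.8% in kept peaks. Gene starts rose to 84.5% and transcription factor starts to 17.5% when starts within 5000 bases counted, and gene starts were 63.0% with protein-coding genes only and 80.2% with the start of any transcript.

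In the densest window the order reversed for GC (70.8% lost, 70.9% kept) and the CpG ratio (0.920, 0.939). At 2 to under 3 kb it reversed for the ratio (0.663, 0.675), gene starts (66.7%, 54.5%) and transcription factor starts (6.35%, 4.55%) and turned for island-like sequence (94.4%, 81.8%), with GC of 57.2% and 25 listed genes. At 3 to under 5 kb it reversed for the ratio (0.581, 0.594), with 33 listed genes. At 5 to under 10 kb it reversed for the ratio (0.509, 0.557), with GC of 52.1%, gene starts in 75%, 19 listed genes and transcription factor starts in 18.3%. At 10 kb or more the values were GC of 51.6%, a ratio of 0.466, islands in 100% against 97.2% of kept peaks, gene starts in 88.9%, 9 listed genes and transcription factor starts in 27.8%. Against kept peaks found with both inhibitors, an alternative chosen after seeing the data, the transcription factor share of 12.5% stood beside 64.5%.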
